A study of Mus musculus with 20 samples.

Results

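Clca1 and Clca2 are 2 neighbouring genes on mouse chromosome 3, taken here from the 36611 genes of the table together with their 5 transcripts. They were picked because both were higher in the knockout libraries and lower on high fat diet, so their levels and fold changes across the 4 groups are a description, and calls made on those comparisons are counted below without being read as support. The genotype by diet interaction and the variation within groups were tested. The 20 RNA libraries, 5 per group, came from inguinal fat, a subcutaneous white adipose depot (iWAT), of female C57BL/6 mice aged 6 months. Control mice, labelled wild type, carried the floxed Tmem120a alleles (fl/fl) without Cre, and Ad-Tmem120a-/- mice (KO) carried the same alleles with Adipoq-Cre, whose promoter is active in adipocytes. Each genotype was fed for 15 weeks a low fat diet (LFD) with 10.5% fat or a high fat diet (HFD) with 58% fat. The floxed alleles were present in every mouse and Cre only in the knockouts, so Cre and the deletion cannot be told apart. The controls were littermates, and the floxed and Cre lines came from different C57BL/6 substrains. The libraries held 54605101 to 92387737 estimated counts.

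Clca genes encode calcium-activated chloride channel regulators. Their products are largely secreted or shed from the cell surface, carry a metalloprotease-like domain, and modulate chloride currents that are opened by calcium rather than forming the pore themselves. The Clca1 product is known from lymphatic endothelium, where it binds the leukocyte integrin LFA-1, and the Clca2 product was first described in mammary gland. Symbols are those of the annotation behind the files. RefSeq now calls Clca1 Clca3a1, Clca2 Clca3a2 and Clca4 Clca3b, and uses the symbols Clca1 and Clca2 for other genes of the family.

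In the mouse build NCBIM37 (mm9), Clca1 (ENSMUSG00000056025) lies on the minus strand at chr3:144392641-144423941 and Clca2 (ENSMUSG00000028262) on the same strand at chr3:144459523-144482458, with 35581 bases between them. Their coding sequences of 2706 bases were 97.1% identical, against 85.7% for either gene with Clca4. They shared 1364 of their 31-base words, which is 35.01% of those of Clca1 and 35.56% of those of Clca2, and the longest exact run was 242 bases. Read pairs that lie wholly within such stretches cannot be assigned to 1 of the genes with certainty. How many did so was not measured, so the split of reads between Clca1 and Clca2 is uncertain to an unknown degree. The first stretch shows what the genes share. Coding bases 12 to 71 read alike in Clca1, Clca2 and Clca4:

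Clca1, Clca2 and Clca4: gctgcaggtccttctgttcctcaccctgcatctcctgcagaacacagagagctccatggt

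The least alike window of 60 bases, coding bases 559 to 618, shows where reads can tell the genes apart, with the 13 differing bases in capitals:

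Clca1: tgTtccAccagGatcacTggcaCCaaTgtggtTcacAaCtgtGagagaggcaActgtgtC
Clca2: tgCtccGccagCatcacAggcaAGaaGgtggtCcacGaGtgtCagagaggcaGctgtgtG

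Tmem120a, the targeted gene, was at 85.4 ± 28.4 TPM (a level corrected for transcript length and library size; SD, n = 5) in control and 41.5 ± 21.9 TPM in KO mice on LFD, and at 119 ± 44.5 and 51.6 ± 26.7 TPM on HFD. On each diet 4 of 5 KO libraries were below every control library and 1 overlapped.

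Clca1 was the less abundant of the pair. In control mice on LFD it was at 2.18, 4.94, 3.68, 5.20 and 4.26 TPM, and in KO mice on LFD at 7.01, 8.91, 11.5, 12.2 and 7.61 TPM. All 5 KO libraries were above all 5 controls on this diet. On HFD the controls were at 1.45, 1.74, 3.79, 2.05 and 1.75 TPM and the KO mice at 2.88, 4.53, 2.86, 3.69 and 2.04 TPM, and these ranges overlapped. Control HFD replicate 13 was the control library that reached into the KO range furthest. From highest to lowest mean the order was KO LFD (9.44 ± 2.31), control LFD (4.05 ± 1.20), KO HFD (3.20 ± 0.95) and control HFD (2.16 ± 0.94 TPM; SD, n = 5 each). KO LFD was separate from the next group, whereas the 3 lower groups each overlapped their neighbour in this order. The log2 fold change fitted by edgeR to estimated counts was 1.15 (SE 0.24) for KO against control on LFD and 0.59 (SE 0.30) on HFD. For HFD against LFD it was -1.13 (SE 0.27) in control and -1.68 (SE 0.26) in KO mice.

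Clca2 was the main Clca transcript of this tissue. In control mice on LFD it was at 36.2, 49.1, 30.4, 42.4 and 41.1 TPM, and in KO mice on LFD at 49.4, 57.0, 74.0, 86.0 and 39.5 TPM. Here 4 of 5 KO libraries were above every control, and KO LFD replicate 10 fell within the control range. On HFD the controls were at 19.99, 22.1, 16.9, 19.4 and 11.1 TPM and the KO mice at 67.0, 47.8, 38.7, 34.3 and 53.4 TPM, with no overlap. The order of the means was KO LFD (61.2 ± 18.7), KO HFD (48.2 ± 12.9), control LFD (39.9 ± 7.04) and control HFD (17.9 ± 4.2 TPM; SD, n = 5 each). The first 3 groups overlapped their neighbours in this order, and control HFD lay below all of them. The log2 fold change of KO against control was 0.54 (SE 0.20) on LFD and 1.39 (SE 0.23) on HFD. HFD against LFD gave -1.33 (SE 0.21) in control and -0.48 (SE 0.23) in KO mice.

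**Figure D1:**
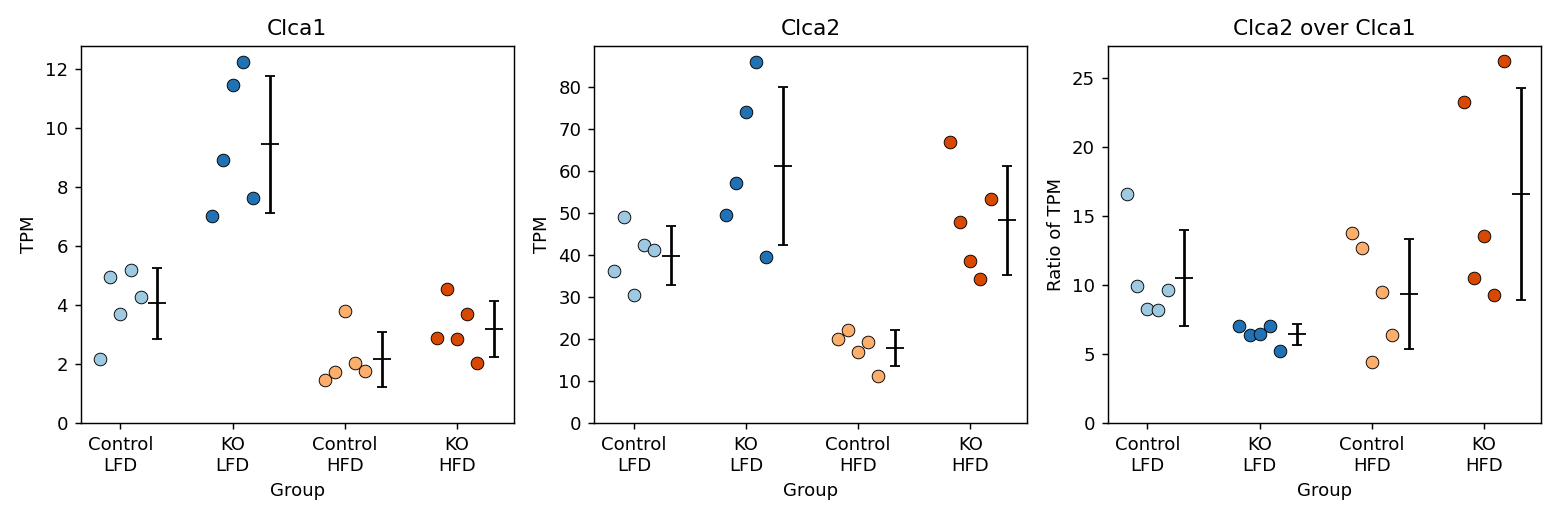
Levels of Clca1 and Clca2 in TPM and the ratio of Clca2 to Clca1 (y axes) in the 4 groups (x axis); each point is 1 library and the bar beside it is the mean with SD, n = 5. Clca1 is highest in KO LFD (7.01 to 12.2 TPM), and Clca2 is lowest in control HFD (11.1 to 22.1 TPM).

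Set against all genes, few differed by genotype in the edgeR test (adjusted p under 0.1). On HFD 0.00657% of 15228 genes were called and on LFD 0.00636% of 15717, and 0 of the 2 members were among them on either diet. At an unadjusted p under 0.05 in edgeR it was 1 member on HFD and 2 on LFD, beside 4.66% and 5.11% of all genes. DESeq2, which called 0.657% and 0.108% of the same genes, called Clca2 on HFD and Clca1 on LFD, so whether a member is called for genotype depends on the tool. For diet, 9.32% of 15311 genes were called in control mice, both members included, and 9.4% of 15705 in KO mice, with Clca1 but not Clca2. DESeq2 called the same members for diet, beside 14.4% of all genes in control and 14.3% in KO mice. TPM ranges that did not overlap and were higher in KO were found for 1.3% of genes on LFD, where Clca1 was 1 of them, and for 0.538% on HFD, where Clca2 was 1. Non-overlapping ranges that were lower on HFD were found for 1.46% of genes in control mice (Clca2) and 2.94% in KO mice (Clca1). By sign alone, 17.1% of 14623 genes were higher in KO on both diets and lower on HFD in both genotypes. Nothing is read from these shares, since the genes were picked on the same comparisons.

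**Figure D2:**
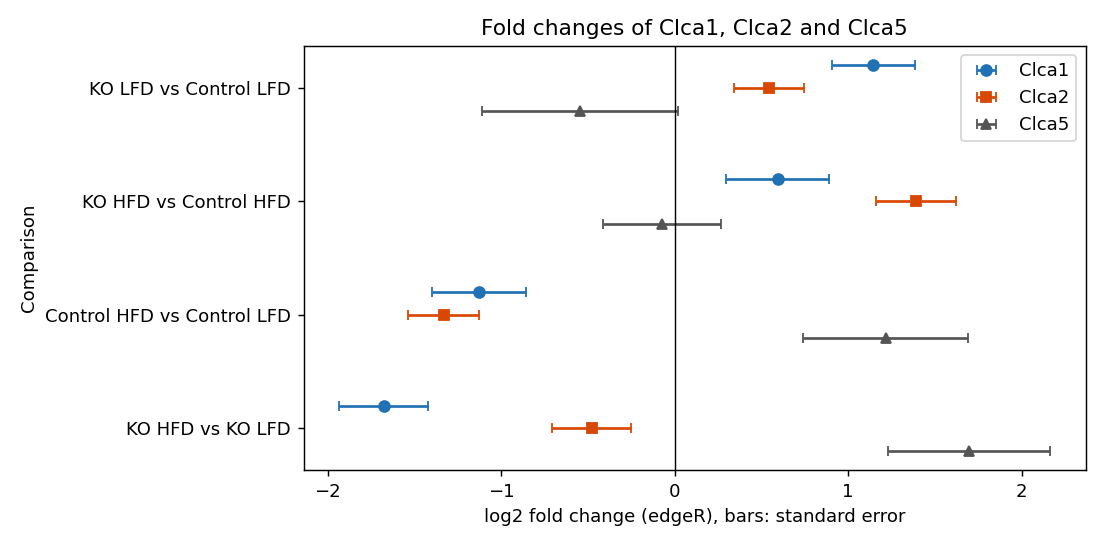
Log2 fold changes (x axis) with standard errors for Clca1, Clca2 and Clca5 in the 4 comparisons (y axis), 5 libraries per group. Both Clca1 and Clca2 lie right of 0 for KO against control and left of 0 for HFD against LFD, and the larger KO difference is on LFD for Clca1 (1.15) and on HFD for Clca2 (1.39).

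Whether the KO difference itself changed with diet was tested as a genotype by diet interaction over all 20 libraries. The KO log2 fold change on HFD minus that on LFD was -0.57 (SE 0.38) for Clca1 and 0.83 (SE 0.32) for Clca2, both at an edgeR adjusted p of 0.9999. Neither passed. Of 15574 genes 0% were called by edgeR, with 560 at an unadjusted p under 0.05, Clca2 among them, and 14 called by DESeq2.

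The ratio of Clca2 to Clca1, which does not depend on library size, was described in the same libraries. It was 10.5 ± 3.48 in control LFD, 6.43 ± 0.76 in KO LFD, 9.34 ± 3.98 in control HFD and 16.6 ± 7.68 in KO HFD (SD, n = 5 each). It ranged from 8.16 to 16.6 in control LFD, 5.19 to 7.05 in KO LFD, 4.46 to 13.8 in control HFD and 9.27 to 26.2 in KO HFD. Ratios of other gene pairs were not computed, so nothing is read from how these ranges lie. The uncertain split of shared reads applies to each of these ratios.

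The transcripts of Clca1 were a coding one of 14 exons (ENSMUST00000059091) and one of 13 exons annotated as a target of nonsense-mediated decay (ENSMUST00000029932). The decay transcript lacks an exon of 101 bases at chr3:144411365-144411465. Its first exon is also longer (414 against 278 bases), and so is its last (1279 against 1040 bases). On LFD both transcripts were found in all 10 libraries. The decay transcript made up 25.9 ± 11.8% of the Clca1 TPM in control and 41.9 ± 7.85% in KO mice (SD, n = 5). On this diet the coding transcript was at 4.79 to 6.37 TPM in KO and 1.94 to 4.25 TPM in control mice. The decay transcript was at 2.19 to 5.85 TPM in KO and 0.24 to 1.75 TPM in control mice. Nothing is read from these ranges, since the gene was picked for its rise in KO libraries. On HFD the split was unstable: the decay share was 0% in control replicates 12 and 14 and KO replicates 17 and 18, but 100% in control replicate 15 and KO replicate 19. A transcript listed at 0 while the gene is detected can be an estimate that failed, so no isoform difference is read on HFD. The LFD shares come from the same kind of estimate and overlapped, so none is read on LFD either.

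**Figure D3:**
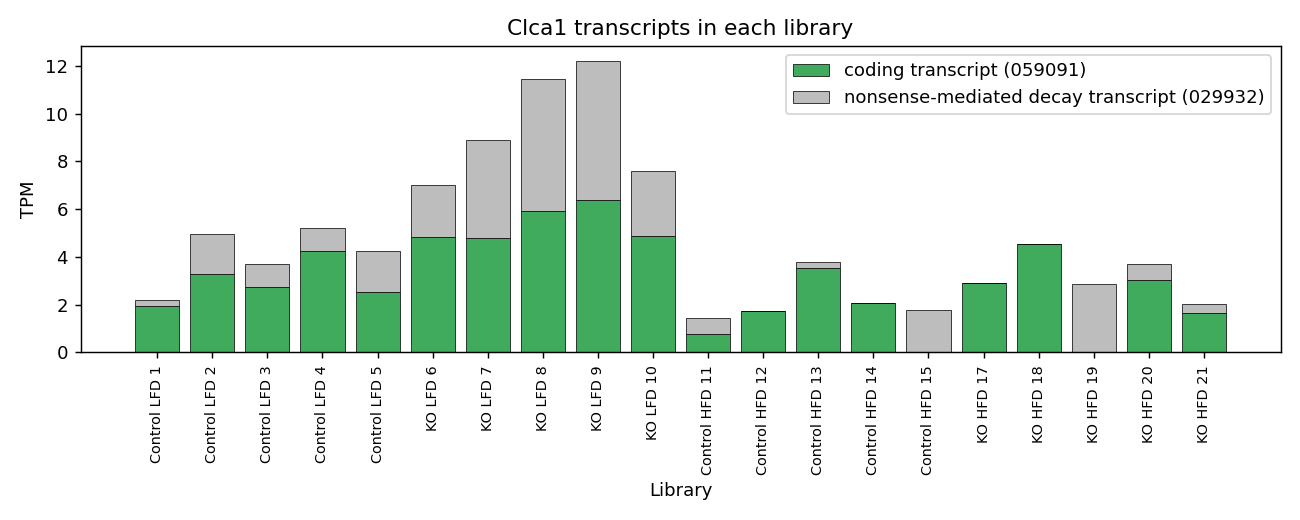
Clca1 TPM (y axis) in each of the 20 libraries (x axis), split into the coding transcript and the nonsense-mediated decay transcript. On LFD every library holds both, whereas on HFD 4 libraries are listed with the coding transcript alone and 2 with the decay transcript alone.

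Clca2 came mostly from its full coding transcript (ENSMUST00000029929), at 89.6 ± 5.31, 90.3 ± 5.09, 91.5 ± 10.1 and 91.7 ± 6.93% of its TPM in control LFD, KO LFD, control HFD and KO HFD. The short coding transcript (ENSMUST00000169349) was at 0 to 4.93 TPM and the retained intron transcript (ENSMUST00000159643) at 0 to 7.80 TPM over the 20 libraries. The full transcript alone had the same order of group means as the gene, at 55.4, 43.9, 35.6 and 16.7 TPM.

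The family has 6 other genes in the same cluster, and Clca1 and Clca2 held 83.1 to 99.5% of the TPM of the 8 family genes in each library. Gm6289 was listed at 0 in every library, AI747448 reached 0.014 TPM and Clca6 0.062 TPM. Clca4 was at 0.474 TPM with 67 counts in KO LFD replicate 9, which also had the highest Clca1 and Clca2, and at 13 counts or fewer elsewhere. Clca3, the goblet cell gene, stood out in control LFD replicates 3 and 4, at 3.26 and 1.43 TPM.

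Clca5 went the other way with diet. It was at 0.15 to 1.44 TPM on LFD and 0.88 to 3.07 TPM on HFD. HFD against LFD gave a log2 fold change of 1.70 (SE 0.47, edgeR adjusted p = 0.0560) in KO mice, where it rose, and 1.22 (SE 0.47, edgeR adjusted p = 0.167) in control mice, where it missed the threshold. KO against control gave -0.55 (SE 0.57) on LFD and -0.08 (SE 0.34) on HFD, with edgeR adjusted p = 0.933 and 0.999.

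The window of 1 Mb on each side held 19 genes besides the pair, the 6 family genes among them. In KO against control none of the 9 tested on HFD and none of the 10 on LFD passed the edgeR test. At an unadjusted p under 0.05 there were 1 and 0, beside 4.66% and 5.11% of all genes, and DESeq2 called 0 and 0. The median log2 fold change of these neighbours was -0.14 on HFD and -0.21 on LFD, beside 0.01 and -0.02 over all genes tested. On HFD against LFD edgeR called 2 of 10 higher in control mice and 2 of 9 in KO mice, where 4.42% and 4.55% of all genes were called higher, and none lower. DESeq2 called 3 in each genotype, where it called 14.4% of all genes in control and 14.3% in KO mice in either direction. Ddah1, which breaks down an inhibitor of nitric oxide synthesis, rose by a log2 fold change of 1.83 (SE 0.27, edgeR adjusted p = 0.00528) in control and 1.89 (SE 0.40, edgeR adjusted p = 0.0182) in KO mice. Cyr61, a matricellular protein, rose by 0.92 (SE 0.24, edgeR adjusted p = 0.0507) in control mice.

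**Figure D4:**
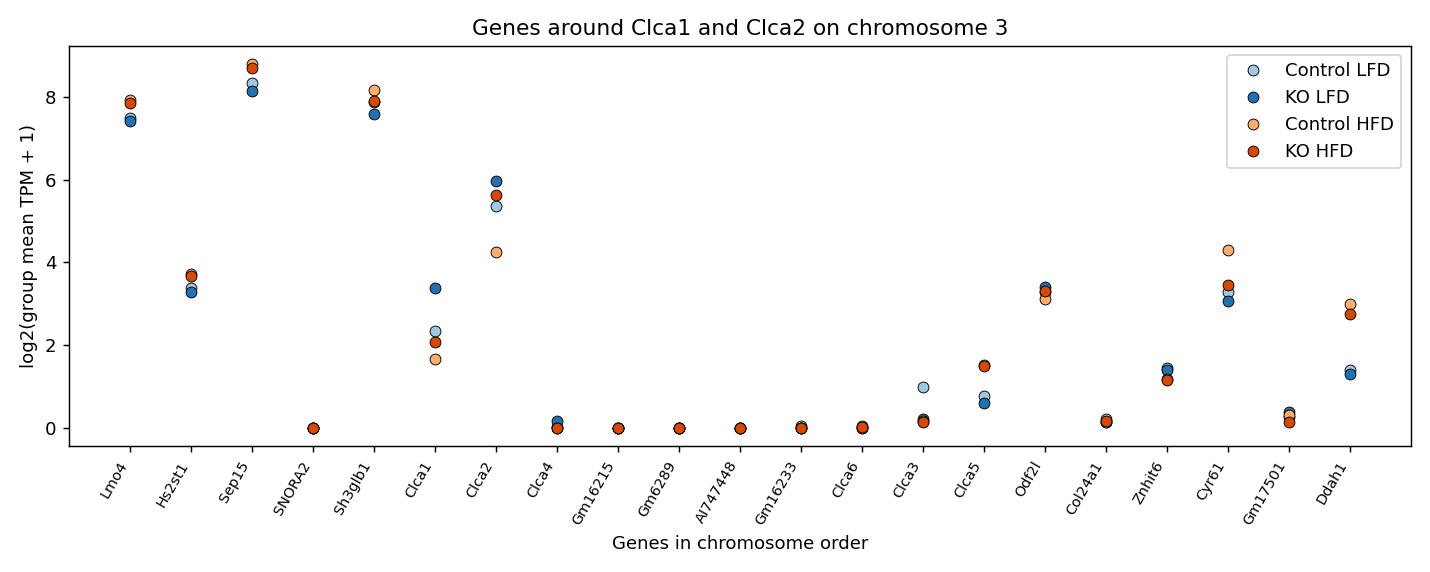
Group means as log2(TPM + 1) (y axis) for Clca1, Clca2 and their 19 neighbours in chromosome order (x axis, not to scale), with 1 point per group of 5 libraries. Clca1 and Clca2 are highest in KO LFD and lowest in control HFD, while Clca5 and Ddah1 are higher on HFD.

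Of 16 other genes for chloride channels and their relatives (Ano1 to Ano10, Best1 to Best3 and Ttyh1 to Ttyh3), none of 9 tested on HFD and none of 12 on LFD passed edgeR for KO against control, with 0 at an unadjusted p under 0.05 and 0 by DESeq2 in each. Ano1, the pore of the calcium-activated chloride channel, was at 32.7 ± 3.75 TPM in control LFD and 25.7 ± 7.85 TPM in control HFD (SD, n = 5). It fell on HFD in control mice by a log2 fold change of -0.67 (SE 0.20, edgeR adjusted p = 0.0832), and in KO mice the value was -0.20 (SE 0.22, edgeR adjusted p = 0.687). It was the 1 gene of 9 that edgeR called for diet in control mice, where 9.32% of all genes were called. In KO mice 0 of 12 were called, where 9.4% of all genes were. There 1 was at an unadjusted p under 0.05, beside 19.8% of all genes. DESeq2 called 2 of the list in control and 1 in KO mice, beside 14.4% and 14.3% of all genes.

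Itgal and Itgb2 encode the chains of LFA-1. Neither passed for KO against control, nor did Itgam or Itgb4 (0 of 4 on each diet, and 0 by DESeq2). At an unadjusted p under 0.05 there was 1 on HFD and 0 on LFD, beside 4.66% and 5.11% of all genes. On HFD against LFD Itgal fell in KO mice (log2 fold change -1.12, SE 0.32, edgeR adjusted p = 0.0647) and Itgb2 rose in control mice (0.56, SE 0.15, edgeR adjusted p = 0.0573). Itgb4, a chain of an epithelial integrin, fell in control (-0.70, SE 0.19, edgeR adjusted p = 0.0618) and KO mice (-0.96, SE 0.25, edgeR adjusted p = 0.0458). For diet edgeR thus called 1 of 4 higher and 1 lower in control mice, beside 4.42% and 4.9% of all genes. In KO mice it called 2 lower, beside 4.85%. DESeq2 called 2 in each genotype, beside 14.4% of all genes in control and 14.3% in KO mice.

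In bulk tissue, fewer cells of a type and less RNA per cell cannot be told apart. The lymphatic endothelium list (7 genes) had a summed level of 34.7 to 58.1 TPM in control LFD, 39.5 to 58.0 in KO LFD, 27.7 to 46.8 in control HFD and 36.8 to 49.4 in KO HFD. Prox1, its defining transcription factor, averaged 0.03 TPM, and Ccl21a was listed at 0 in every library. Of its 5 tested genes none passed edgeR for KO against control, and 0 passed by DESeq2 on either diet. At an unadjusted p under 0.05 there were 0 on HFD and 2 on LFD, beside 4.66% and 5.11% of all genes. On HFD against LFD Reln fell in control mice (log2 fold change -1.21, SE 0.32, edgeR adjusted p = 0.0530) and Reln and Flt4 fell in KO mice (-1.73, SE 0.33, and -0.89, SE 0.22, with edgeR adjusted p = 0.0120 and 0.0382). That is 1 of 5 tested genes in control and 2 of 5 in KO mice, beside 4.9% and 4.85% of all genes called lower. DESeq2 called 1 and 2, beside 14.4% and 14.3% of all genes in either direction.

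The skeletal muscle list (11 genes) also moved with the groups. Its summed level was 8.43 to 3716 TPM in control LFD, 13.9 to 1129 in KO LFD, 8.14 to 58.3 in control HFD and 45.1 to 1623 in KO HFD, and no member was at 0 in every library. Of its 11 genes, edgeR called 9 lower on HFD in control mice, where 4.9% of all genes were called lower. DESeq2 called 5, where it called 14.4% of all genes in either direction. For KO against control on HFD all 11 muscle genes were above 0, with a median log2 fold change of 5.39, beside 0.01 over all genes. On LFD all 11 were below 0, with a median of -0.88, beside -0.02. At an unadjusted p under 0.05 in edgeR there were 11 on HFD and 0 on LFD, beside 4.66% and 5.11% of all genes. The part of either list in the group differences of Clca1 and Clca2 was not tested. Variation within groups was tested against both lists, as given below. Neither gene passed there with the muscle list (Pearson permutation test, adjusted p = 0.839 for each). The white adipocyte list was at 18260 to 23938 TPM in control LFD, 16131 to 21597 in KO LFD, 23220 to 33456 in control HFD and 21330 to 31613 in KO HFD. Over all 11 marker lists 0 of 91 genes passed edgeR for KO against control on HFD and 0 of 92 on LFD. At an unadjusted p under 0.05 there were 18 and 8, where 4.66% and 5.11% of all genes were. DESeq2 called 9, all of them in the muscle list, and 0, where it called 0.657% and 0.108% of all genes.

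Variation among mice of 1 group was not used to pick the genes. Each library was therefore set against its own group mean on the log2(TPM + 1) scale, and these deviations were compared over the 20 libraries by permutation within groups. Clca1 and Clca2 deviated together only weakly, with Pearson r = 0.26 (two-sided permutation p = 0.300) and Spearman rho = 0.25 (permutation p = 0.321), and r was 0.31 without the 2 libraries farthest out. In 13 of 20 libraries both lay on the same side of their group means. On LFD they did so in every library, whereas on HFD they lay on opposite sides in most. This split by diet was seen afterwards and was not tested.

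Clca1 followed the lymphatic list, with Pearson r = 0.71 (permutation p = 0.00163, adjusted over 22 gene and list pairs p = 0.0359) and Spearman rho = 0.68 (permutation p = 0.00277, adjusted p = 0.0609). They lay on the same side in 17 of 20 libraries, and r was 0.74 without the 2 libraries farthest out. The call is thin, since the rank version missed 0.05 and so did the Pearson version when any 1 of 16 of the 20 libraries was left out (r 0.64 to 0.74 in those 16, and 0.73 to 0.80 in the 4 that passed). Lyve1 is also made by macrophages and Pdpn by fibroblasts. These 2 genes made up most of the summed level, at means of 19.6 and 14.9 TPM over the 20 libraries. Mmrn1 averaged 5.31 TPM, Reln 1.24 TPM and Flt4 1.21 TPM. Among the single markers r with Clca1 was 0.62 for Mmrn1, 0.52 for Pdpn, 0.47 for Lyve1, 0.42 for Flt4, 0.28 for Reln and -0.15 for Prox1, which was near 0 TPM. Clca2 and the lymphatic list gave r = 0.25 (permutation p = 0.312, adjusted p = 0.820). Single-marker r with Clca2 was 0.80 for Pdpn, 0.62 for Flt4, 0.12 for Lyve1, -0.02 for Reln, -0.35 for Mmrn1 and -0.37 for Prox1. For Pdpn and Flt4 it was above that with Clca1, and for the others below. None of the other 20 pairs passed, and the nearest were Clca1 with lymphocytes (r = 0.51) and with mammary epithelium (r = 0.45) and Clca2 with epidermis (r = 0.45), each at adjusted p = 0.367 by permutation.

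**Figure D5:**
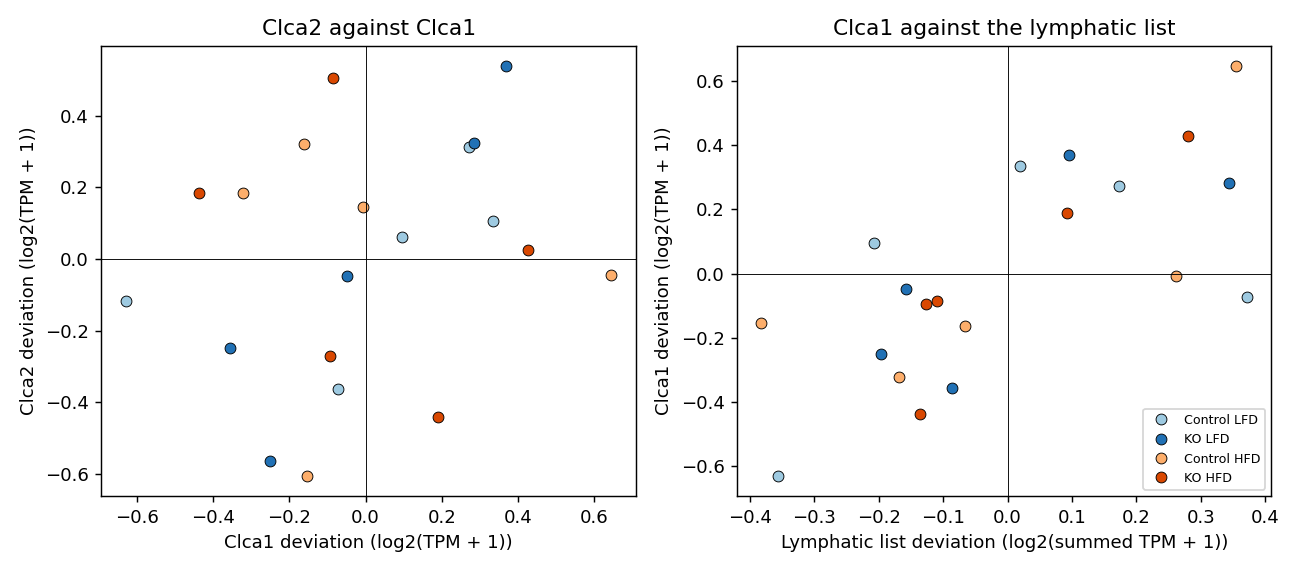
Deviations of each of 20 libraries from its group mean, coloured by group, for Clca2 (y) against Clca1 (x), both as log2(TPM + 1), on the left and for Clca1 (y) against the summed lymphatic list (x) on the right. The left cloud is loose (r = 0.26) and the right one rises (r = 0.71).

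Over 13975 other genes averaging 1 TPM or more, those whose within-group deviations were most like Clca1 were Lepr (r = 0.83), Cyp1b1 (0.80), Gm266 (0.78), Tmem194b (0.78), Tes (0.78), Id2 (0.77), Rab27a (0.77), Fam134b (0.77), Nxf1 (0.76) and Bdh1 (0.76). For Clca2 they were Pdpn (r = 0.80), Stbd1 (0.80), 9430076C15Rik (0.80), Shc2 (0.79), Pdxdc1 (0.78), Hyal1 (0.78), Fdxr (0.77), Scaf1 (0.76), Kdm4b (0.76) and Sbf1 (0.76). The lists shared no gene. Clca2 ranked 2522nd for Clca1, and Clca1 ranked 3492nd for Clca2. These are descriptions over 20 libraries, chosen as the highest of many. Lepr, the leptin receptor and first for Clca1, had group means of 8.66 TPM in control LFD, 14.2 in KO LFD, 4.27 in control HFD and 8.66 in KO HFD. Pdpn, first for Clca2, was at 14.8, 15.9, 13.6 and 15.4 TPM in the same order of groups.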

How the data were processed

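The study sequenced ribosome-depleted RNA from iWAT in 20 libraries. Per the labels and the study's methods, the authors aligned read pairs with STAR 2.5.3 to mm9 and quantified Ensembl transcripts with Salmon 0.13.1. The deposited table holds an estimated count and a TPM for each of 96533 transcripts in each library, and 94334 (97.7%) matched the annotation of build NCBIM37 and were summed into 36611 genes; the rest held 0.377 to 0.581% of counts. Salmon splits reads that fit several transcripts, which touches every level of Clca1, Clca2 and their isoforms.

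Estimated counts were rounded and tested with edgeR 4.0.16 (quasi-likelihood, TMM scaling) between pairs of groups for genes averaging 0.5 TPM or more, at a Benjamini-Hochberg adjusted p under 0.1. Standard errors are the log2 fold change over the square root of F. The interaction was fitted over all 20 libraries. Correlations used 100000 permutations within groups (20000 with a library left out) in scipy 1.17.1. Coding sequences were aligned with mafft 7.526. Sequence upstream of the genes is not reported here. Alternatives were DESeq2 1.42.0, no limit on low values, length offsets, a fit over all 4 groups, ratios of mean TPM, another pseudocount (0.1), TMM-scaled CPM, each library left out and, added after seeing the data, a newer edgeR method. The scripts were tested on simulated data.

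The members, gene lists and tests were chosen with earlier results of these data known. Genes were named by a rule: the pair and its transcripts, the Clca family, genes starting within 1 Mb, chloride channel and integrin genes, Tmem120a, the 10 genes most like each member, and markers that define a list or passed. The 11 marker lists were lymphatic and blood endothelium, white adipocytes, fat progenitors, smooth muscle and pericytes, macrophages, lymphocytes, mammary epithelium, epidermis, Schwann cells and skeletal muscle fibres. The labels number 5 libraries per group without naming the animals, so p-values measure the spread between these libraries. The labels give no batch.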

Additional observations from a re-analysis of the deposited data

Results flagged for a closer look

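In 40 sets of 5 libraries, 5 held a library far from the other 4. The limit used gives about 1 in 20 for independent sets with a normal spread. These sets held genes, their own transcripts and a ratio, some with values of 0, so the count was not compared with chance. Clca1 was at 3.79 TPM in control HFD replicate 13, against 1.45 to 2.05 TPM in the other 4. The Clca1 decay transcript was at 2.86 TPM in KO HFD replicate 19, against 0 to 0.66 TPM, in a library listed with no coding transcript. The Clca2 retained intron transcript was at 2.94 TPM in control HFD replicate 15, against 0 to 0.68 TPM. The ratio of Clca2 to Clca1 was 16.6 in control LFD replicate 1, against 8.16 to 9.95. Clca3 was at 0.479 TPM in KO LFD replicate 9, against 0.067 to 0.108 TPM.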

How the results depend on the processing

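The log2 fold changes of Clca1 and Clca2 kept their direction in all 4 comparisons under every alternative, and so did both interaction values, which passed under none. No paired analysis was possible because the groups share no replicate numbers. Counts of called genes moved, and the cause was not tested. For KO against control on HFD the count was 1 with edgeR, 100 with DESeq2, 26 without a limit on low values, 5 with length offsets, 34 with the newer method, 3 in the fit over all groups and 1 to 56 with a library left out, the 56 being without KO HFD replicate 21. On LFD it was 1, 17 with DESeq2, 2 in the fit over all groups and 1 to 2 with a library left out. For diet it was 1427 in control mice, 2205 with DESeq2 and 778 to 1849 with a library left out, and 1476 in KO mice, 2247 with DESeq2 and 753 to 1356 with a library left out. Of the 22 gene and list pairs, 1 passed, and 0 to 1 with a library left out. Of the 17 pairs whose r is not printed here, 12 changed sign under at least 1 alternative and 0 passed under any. For KO against control the edgeR fit called 0 of the 2 members on either diet, and DESeq2 called 1 on each.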
